A study of Mus musculus with 6 samples.

Results

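The genes described here make, load and cut neuropeptides: the prohormone convertases Pcsk1 and Pcsk2, their binding partners Pcsk1n and Scg5, the trimming enzyme Cpe, the granins Chga, Chgb, Scg2 and Scg3, and the neuropeptide precursor Npy. They were taken by symbol from the count table, where all 10 were found among 36291 gene rows, and all 10 passed the filter on low counts that left 13835 genes tested. The list was selected on the KO against WT differences of these same libraries, which were known when it was drawn up. Their KO to WT differences are therefore given as a description of size and spread, and the calls among them support nothing.

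The study concerned the migration of cortical interneurons and its dependence on the transcription factor gene Zeb2, which the series calls Sip1. Messenger RNA was sequenced in 6 libraries of green fluorescent cells sorted from E14.5 telencephalon of embryos of the Swiss mouse strain. The 3 KO libraries came from embryos the series names Sip1|Nkx2-1 knockout, and the 3 WT libraries from embryos labelled WT. In both genotypes the fluorescence marked cells that an Nkx2-1-iCre driver had reached, so both carried that driver and the reporter. Nkx2-1 is expressed in the ventral forebrain, chiefly the medial ganglionic eminence in the telencephalon, and the driver limits the sorted cells to descendants of cells that had used it. The deleted part of Zeb2, the number of embryos behind a library and whether libraries of a genotype came from separate embryos were not stated, so the errors below measure the spread between these libraries. The library names pair 1 KO with 1 WT library under each of the numbers K77, K79 and K80.

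Neuropeptides and peptide hormones are made as long precursors that enter dense-core granules. The convertases cut the precursor at pairs of basic residues inside the maturing granule, Cpe trims the basic residues left at the new ends, and granins help pack the cargo. Pcsk2 needs Scg5 (the protein 7B2) to become active, and Pcsk1n (proSAAS) inhibits Pcsk1. In the embryonic ventral forebrain, young interneurons of the medial ganglionic eminence include cells that later release somatostatin and neuropeptide Y.

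The libraries held 8323531 to 11069437 counts in genes, and levels are given as CPM, counts scaled to a common library size and for composition, with the mean ± SD over 3 libraries per genotype. Log2 fold changes are KO over WT from edgeR, with the standard error (SE), and a gene is called changed at a Benjamini-Hochberg adjusted p under 0.05 over all genes tested. Zeb2 averaged 308 ± 35.6 CPM in KO and 662 ± 133 CPM in WT libraries, a log2 fold change of -1.11 (SE 0.138). The sum over 16 genes of the interneuron lineage was 6569 to 7425 CPM in KO and 6239 to 7562 CPM in WT libraries. Of these genes 3 were called higher and 7 lower in KO, beside 6.27% called over all genes tested. That list was chosen with earlier results of these data known. Markers of other cells were summed in the same way. The summed level was 23.7 to 55.7 CPM in KO and 12.2 to 28.6 CPM in WT libraries for 14 hypothalamic genes, of which Rax and Irx3 were at 0 in all libraries. It was 30.6 to 55.0 CPM in KO and 27.8 to 51.6 CPM in WT for 13 endothelial and mural genes, and 758 to 947 CPM in KO and 798 to 1119 CPM in WT for 12 glutamatergic genes. It was 10.9 to 25.0 CPM in KO and 18.0 to 31.4 CPM in WT for 10 erythroid genes, of which Hba-a1 and Hba-a2 were at 0 in all libraries, and 3.81 to 5.17 CPM in KO and 4.03 to 5.78 CPM in WT for 10 microglial genes. The genes tested in these 5 lists were 3 hypothalamic, 12 endothelial and mural, 12 glutamatergic, 5 erythroid and 1 microglial. Among them edgeR, DESeq2 and limma voom each called 0, and 1 hypothalamic, 1 endothelial and 1 glutamatergic gene had an unadjusted p under 0.05. All 3 hypothalamic genes tested had a log2 fold change above 0 (median 0.70). So did 5 of 12 endothelial and mural, 2 of 12 glutamatergic, 1 of 5 erythroid and 0 of 1 microglial genes. Genes left untested could not be called, so the 0 calls do not show equal levels. With the K number as a block edgeR called 1 endothelial and mural gene higher and 1 erythroid gene lower, beside 10.6% of all genes tested.

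Among the 10 genes edgeR called 2 higher in KO, Pcsk2 and Cpe, and 0 lower, with 3 higher and 0 lower at an unadjusted p under 0.05 and the same 2 and 0 by DESeq2 and by limma voom. Over all 13835 genes tested 6.27% were called, 3.64% higher and 2.62% lower, and 2539 genes had an unadjusted p under 0.05. The median log2 fold change was 0.13 over the 10 genes, 7 of them above 0, and -0.01 over all genes tested, 6715 of them above 0. KO and WT libraries did not overlap in Pcsk2, Cpe and Pcsk1, which compares with 23.2% of all genes tested. Because these genes were chosen with that contrast known, nothing is read from these counts. The RNA comes from whole sorted populations, so more cells that express a gene and more RNA per cell cannot be told apart.

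Promoter sequences are shown for the 2 convertases, which differ in their change between the genotypes, and for the granins Scg2 and Chgb. They come from RefSeq on build GRCm38.p6, run 5′ to 3′ on the gene's strand, and span 250 bases before to 50 bases after the annotated start. Capitals mark 3 motifs searched on both strands: CACCTG, an E-box that Zeb proteins can bind, TGACGTCA, the cAMP response element, and TTCAGCACC, one side of the RE1 element read by the repressor Rest.
Pcsk1, chr13:75089607-75089906 (+): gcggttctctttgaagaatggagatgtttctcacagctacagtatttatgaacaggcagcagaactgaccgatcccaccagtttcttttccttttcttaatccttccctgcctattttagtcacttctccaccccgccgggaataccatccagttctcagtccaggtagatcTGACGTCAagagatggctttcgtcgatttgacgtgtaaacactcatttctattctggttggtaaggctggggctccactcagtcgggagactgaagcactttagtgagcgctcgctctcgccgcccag
Pcsk2, chr2:143545883-143546182 (+): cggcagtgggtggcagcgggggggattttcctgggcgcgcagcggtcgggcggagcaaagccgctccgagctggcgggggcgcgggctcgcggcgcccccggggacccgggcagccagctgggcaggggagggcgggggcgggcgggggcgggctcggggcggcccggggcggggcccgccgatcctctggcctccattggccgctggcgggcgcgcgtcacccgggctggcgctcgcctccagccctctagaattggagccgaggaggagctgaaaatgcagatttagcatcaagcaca
Scg2, chr1:79439977-79440276 (-): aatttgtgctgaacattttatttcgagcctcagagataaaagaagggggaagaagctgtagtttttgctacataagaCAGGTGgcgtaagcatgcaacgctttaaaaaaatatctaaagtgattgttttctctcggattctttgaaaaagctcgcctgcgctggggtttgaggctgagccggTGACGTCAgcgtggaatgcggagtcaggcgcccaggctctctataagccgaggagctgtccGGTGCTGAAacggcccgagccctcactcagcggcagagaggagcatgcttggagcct
Chgb, chr2:132781392-132781691 (+): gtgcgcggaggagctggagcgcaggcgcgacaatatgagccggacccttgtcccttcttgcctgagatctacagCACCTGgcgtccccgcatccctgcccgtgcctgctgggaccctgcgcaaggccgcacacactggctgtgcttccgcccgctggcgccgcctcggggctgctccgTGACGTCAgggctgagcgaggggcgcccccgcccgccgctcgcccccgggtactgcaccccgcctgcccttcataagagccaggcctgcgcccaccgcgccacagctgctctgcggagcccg

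Of the 10 genes 9 matched a promoter in that table, 1 window each. The cAMP response element was found in 3 of the 9, starting at -78 in Pcsk1, -68 in Scg2 and -72 in Chgb counted from the start site, while 1.79% of all 32851 windows held it. All 3 are among the sequences shown, which therefore do not represent the 9. The CACCTG E-box was found in 4 of the 9 (Scg2, Scg5, Chga and Chgb), against 20.2% of all windows. Its shorter core CACCT, which lies within it and is not capitalised on its own, was found in the same number, 4 of the 9, against 51.9% of all windows. The shorter TGACG, part of the cAMP response element, was found in 7 of the 9, against 20.8%. The RE1 part was found only in Scg2 among the 9, starting at -7 and on the opposite strand, against 0.371% of all windows. The windows of Pcsk2, Pcsk1n, Scg3 and Npy held none of the 3 motifs. The 3 capitalised motifs did not overlap one another in these windows. A match describes the letters only, and no binding was measured.

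Of the 10 genes Pcsk2 had the largest log2 fold change. It encodes the convertase that makes the shorter peptides of many precursors, among them enkephalins. It had 82.4, 76.98 and 64.5 CPM in KO K77, K79 and K80, against 19.0, 20.2 and 18.0 CPM in WT K77, K79 and K80. Each KO library stood more than 3-fold above each WT library, and the WT libraries lay close together. The reads behind these levels were 685, 780 and 711 counts in KO and 174, 210 and 190 counts in WT libraries, in the same order. Pcsk2 rose 3.91-fold in KO, a log2 fold change of 1.97 (SE 0.107, 95% interval 1.73 to 2.20), and the log2 difference within a K number was 2.09 for K77, 1.91 for K79 and 1.81 for K80. By log2 fold change it stood at rank 37 from the highest of the 13835 genes tested. Leaving out any 1 library, it was 1.89 to 2.06 and remained called. The summed hypothalamic markers had overlapping ranges between the genotypes but their highest value in KO (55.7 CPM, against 28.6 CPM in WT). The interneuron lineage list held 7 lower and 3 higher calls of 16, beside 6.27% called over all genes tested. The part of either in the difference in Pcsk2 was not tested.

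Pcsk1, the other neuroendocrine convertase, had the lowest level of the 10 genes. It stood at 6.13, 5.13 and 6.07 CPM in KO K77, K79 and K80, against 6.65, 7.49 and 7.50 CPM in WT K77, K79 and K80. The genotypes did not overlap, although the gap between KO K77 and WT K77 was small. The log2 fold change was -0.32 (SE 0.163, 95% interval -0.69 to 0.04), not called, on 51 to 67 counts in KO and 61 to 79 counts in WT libraries.

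Counts per kb of coding sequence put the pair on one scale within a library. The ratio of Pcsk2 to Pcsk1 was 15.9, 17.7 and 12.5 in KO K77, K79 and K80, against 3.37, 3.18 and 2.84 in WT K77, K79 and K80. Pcsk2 was thus the more abundant convertase transcript in every library of both genotypes, and the KO ratios lay above all WT ratios. The 2 convertases together came to 70.5 to 88.5 CPM in KO and 25.5 to 27.6 CPM in WT libraries.

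**Figure D1:**
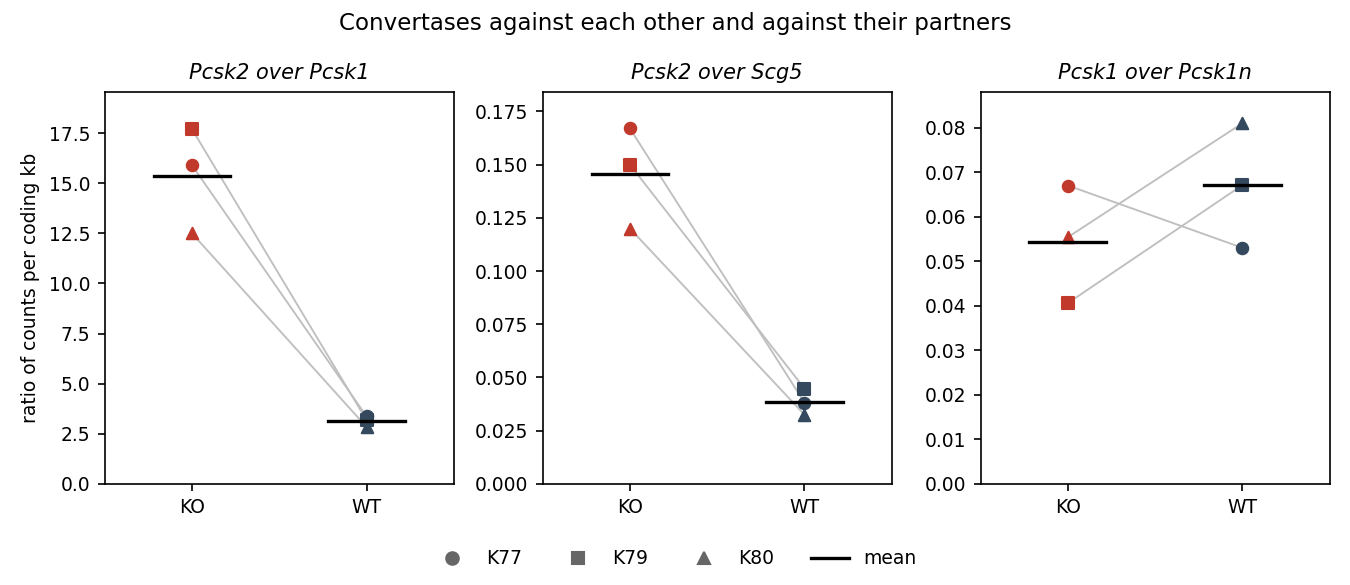
Ratios of counts per kb of coding sequence in each library (points, joined within a K number; bars are means over 3 libraries; each axis starts at 0). Pcsk2 over Pcsk1 lies between 12.5 and 17.7 in KO and between 2.84 and 3.37 in WT libraries, Pcsk2 over Scg5 is also separated between genotypes, and Pcsk1 over Pcsk1n overlaps.

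The partners of the convertases did not show the difference seen in Pcsk2. Scg5, which encodes 7B2, the chaperone of Pcsk2, had 164, 171 and 179 CPM in KO K77, K79 and K80, against 165, 150 and 185 CPM in WT K77, K79 and K80. The genotypes overlapped, with the WT libraries spread more widely than the KO libraries. The log2 fold change was 0.04 (95% interval -0.13 to 0.21), not called, and it was below 0 when WT K79 or both K79 libraries were left out. The ratio of Pcsk2 to Scg5 per coding kb was 0.167, 0.150 and 0.120 in KO K77, K79 and K80, against 0.0382, 0.0448 and 0.0325 in WT K77, K79 and K80. These ratios did not overlap either.

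Pcsk1n, the inhibitor of Pcsk1, had 31.4, 43.3 and 37.5 CPM in KO K77, K79 and K80, against 43.0, 38.2 and 31.7 CPM in WT K77, K79 and K80. The genotypes overlapped fully, and the K number with the highest level in WT had the lowest in KO. The log2 fold change was -0.00 (95% interval -0.31 to 0.30), not called, and its sign changed with limma voom, with the K number as a block, and without KO K77, WT K77 or WT K79. Pcsk1n lies on the X chromosome. The X-inactivation transcript Xist had 26109 counts in WT K79 and 13 to 28 counts in the other 5 libraries. The Pcsk1n level of WT K79 lay between those of WT K77 and WT K80. Whether Pcsk1n differs with Xist was not tested, because only 1 library, a WT library, was high in Xist.

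Cpe, the carboxypeptidase that trims peptide ends after the convertases have cut, was the most abundant of the 10 genes by CPM and the second that was called. It had 670, 687 and 757 CPM in KO K77, K79 and K80, against 507, 573 and 571 CPM in WT K77, K79 and K80. Each KO library was above each WT library. Cpe rose 1.28-fold in KO, a log2 fold change of 0.36 (SE 0.0711, 95% interval 0.20 to 0.52). The call was lost without KO K80 or without WT K77, where the edgeR adjusted p reached 0.097, and 1 of the 10 genes was then called.

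The granins, acidic proteins that condense inside granules, were not called. Chga, which encodes chromogranin A, had 61.8, 61.5 and 63.3 CPM in KO K77, K79 and K80, against 58.5, 57.2 and 68.0 CPM in WT K77, K79 and K80. The KO libraries lay within the range of the WT libraries, and the log2 fold change of 0.02 (95% interval -0.16 to 0.20) was below 0 without WT K77, without WT K79 or without both K79 libraries. Scg3, a granin that binds chromogranin A and granule membrane, averaged 248 ± 20.6 CPM in KO and 254 ± 22.6 CPM in WT libraries (SD, n = 3 each). Its log2 fold change of -0.03 (95% interval -0.22 to 0.15) was above 0 without KO K77 or without WT K80.

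Chgb, which encodes chromogranin B, had 56.1, 71.3 and 74.4 CPM in KO K77, K79 and K80, against 53.4, 55.9 and 60.1 CPM in WT K77, K79 and K80. Only KO K77 fell inside the WT range. The log2 fold change was 0.25 (SE 0.106), not called over all 6 libraries and called without KO K77 (edgeR adjusted p = 0.04, against 0.227 with all 6 and up to 0.59 without other libraries).

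Scg2, the precursor of secretoneurin, varied most between libraries of 1 genotype. It had 13.6, 39.1 and 43.2 CPM in KO K77, K79 and K80, against 11.01, 26.3 and 22.02 CPM in WT K77, K79 and K80. The genotypes overlapped, the K77 library was the lowest of its genotype in both cases, and the coefficient of variation was 50.2% in KO and 39.9% in WT libraries, against 1.54 to 16.0% in KO and 5.57 to 22.5% in WT libraries for the other 9 genes. KO was above WT within each K number, by 0.29 for K77, 0.56 for K79 and 0.95 for K80 on the log2 scale. The log2 fold change was 0.70 (SE 0.386) and not called, and it was 0.67 (SE 0.122) and called with the K number as a block (edgeR adjusted p = 0.00779, against 0.39 without the block). With that block 3 of the 10 genes were called higher and 0 lower, against 6.13% of all genes tested called higher and 4.45% called lower. Without the block Scg2 was not called by DESeq2 (adjusted p = 0.788) or limma voom (0.49), and the block was the only 1 of 14 alternatives to call it. In the authors' deposited table Scg2 was called, with a log2 fold change of 0.69 and an adjusted p of 1.04e-05. Pcsk2 (1.97) and Cpe (0.36) were called there too.

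**Figure D2:**
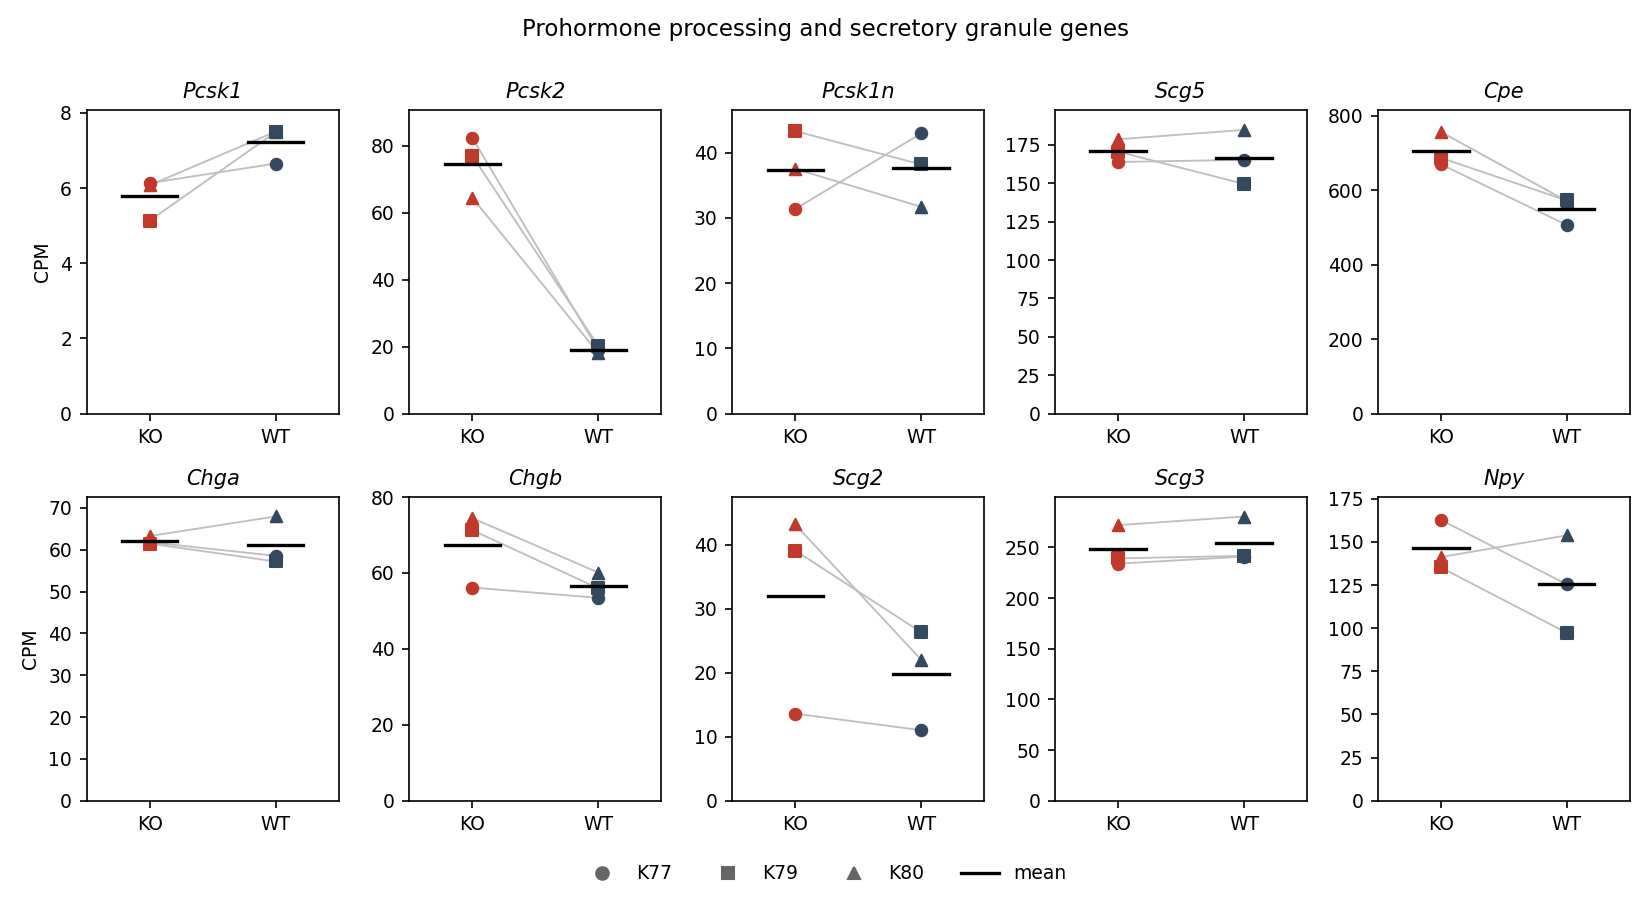
Level in CPM of each of the 10 genes in each library (points, joined within a K number; bars are means over 3 libraries; each axis starts at 0). Pcsk2 lies between 64.5 and 82.4 CPM in KO and between 18.0 and 20.2 CPM in WT libraries, and both K77 libraries are low in Scg2.

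Npy is the precursor of neuropeptide Y, a peptide transmitter of many inhibitory neurons. It had 163, 135 and 141 CPM in KO K77, K79 and K80, against 125, 97.3 and 154 CPM in WT K77, K79 and K80. The genotypes overlapped, because WT K80 lay above 2 of the KO libraries. KO was above WT in K77 and K79 (0.38 and 0.47 on the log2 scale) and below it in K80 (-0.12). The log2 fold change was 0.22 (SE 0.141, 95% interval -0.09 to 0.54) and not called. Sst, the other large peptide transcript of these cells, stood at 601, 469 and 605 CPM in KO K77, K79 and K80, against 517, 447 and 647 CPM in WT K77, K79 and K80, also overlapping (log2 fold change 0.06, below 0 without KO K80 or WT K79).

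**Figure D3:**
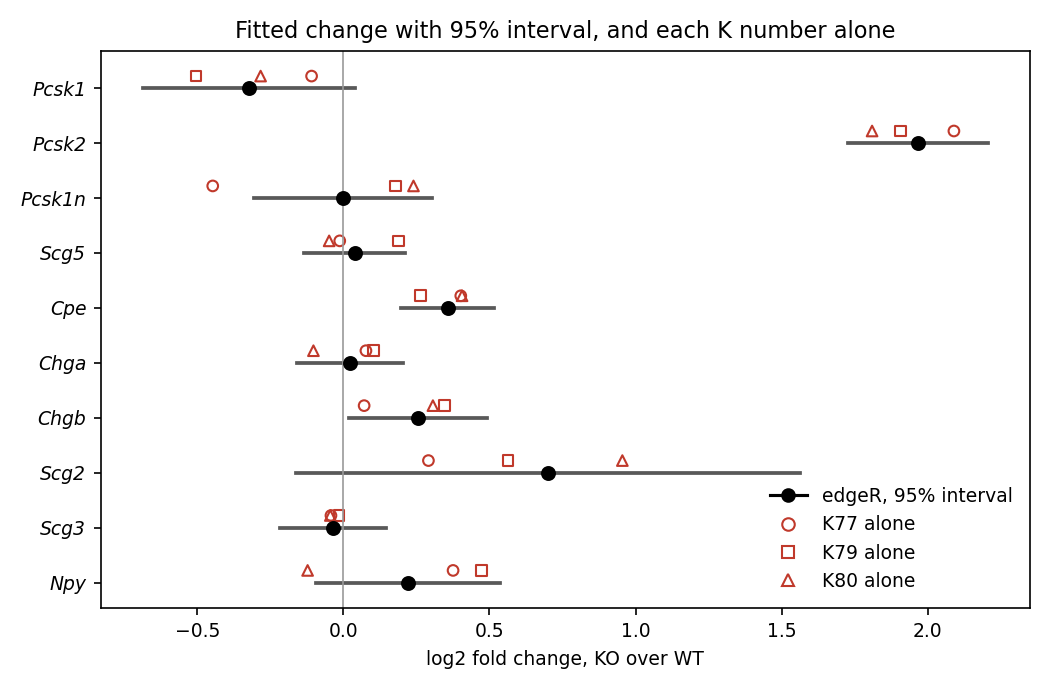
Log2 fold change of KO over WT for the 10 genes (black points, with 95% intervals from the edgeR fit as lines) and the log2 difference within each K number (open symbols). Pcsk2 at 1.97 stands apart from the others, which lie between -0.32 and 0.70, and the 3 K numbers of Pcsk1n fall on both sides of 0.

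Levels per kb of coding sequence gave the order of the 10 genes. In WT libraries the mean level per coding kb ran from Npy (431 ± 97.0 CPM per kb) and Cpe (385 ± 26.3) through Scg5 (262 ± 27.7) and Scg3 (180 ± 16.0) to Pcsk1n (48.6 ± 7.30) and Chga (44.1 ± 4.22). Chgb (27.8 ± 1.66), Scg2 (10.7 ± 4.26), Pcsk2 (9.97 ± 0.556) and Pcsk1 (3.19 ± 0.215) followed. The WT libraries of Npy and Cpe overlapped, as did those of Pcsk1n and Chga and those of Scg2 and Pcsk2, and the other neighbours in this order were apart in every library. In KO libraries Pcsk2 reached 39.0 ± 4.81 CPM per coding kb, between Chga (44.8 ± 0.689) and Chgb (33.1 ± 4.81), and its libraries overlapped those of Chgb and Pcsk1n. Per kb of merged exons, untranslated parts included, Cpe (260 CPM per kb) came before Npy (222) in WT, and Pcsk1n (17.2) came after Chga (32.5) and Chgb (20.6). On that scale Pcsk2 was at 15.8 in KO and 4.03 in WT libraries.

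The genes whose profile over the 6 libraries lay nearest to a member were found among 11022 other genes of at least 5 CPM, by the root mean square difference of log2 CPM after centring each gene on its own mean. For Pcsk2 they were the heparan sulfate sulfotransferase gene Hs6st3 (0.112), Chodl (0.176), which encodes chondrolectin, and D030055H07Rik (0.186). Hs6st3 averaged 17.6 ± 1.02 CPM in KO and 4.58 ± 0.232 CPM in WT libraries. For Pcsk1 they were C130071C03Rik (0.0268), Taf1d (0.0361) and Fstl5 (0.0388), and for Npy they were C030006K11Rik (0.0806), Gm5380 (0.0877) and Efcab7 (0.0892). The profile of Pcsk1 rests on 51 to 67 counts in KO and 61 to 79 counts in WT libraries, so sampling noise limits its ranking. The 3 genes nearest Pcsk2 share its step between the genotypes (log2 fold changes 1.94, 1.99 and 1.94), the contrast on which the members were chosen. Whether any of these genes vary together with a member was not tested.

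The rest of the peptide pathway was described with 5 further lists. Of 24 other processing enzymes 19 were tested, and edgeR called 0 of them, against 6.27% of all genes tested. At an unadjusted p under 0.05 there were 1 higher and 1 lower, against 2539 of all 13835 genes tested in either direction. DESeq2 called 1 higher and limma voom 0. Furin, the convertase of the constitutive pathway, had 35.2, 37.1 and 38.6 CPM in KO K77, K79 and K80, against 38.4, 34.6 and 35.8 CPM in WT K77, K79 and K80, and overlapped between the genotypes. Nrd1 (log2 fold change 0.02) and Mbtps1 (-0.04) were the most abundant of the list. With the K number as a block 2 were called, Pam, the enzyme that amidates peptide ends, at -0.27 (edgeR adjusted p = 0.0275, 0.0936 without the block) and Prepl at 0.27 (0.00708, 0.0649 without the block), against 10.6% of all genes tested. Both were picked out after their values were seen.

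Among peptide precursors other than Npy, Pnoc and Penk, which belong to the opioid family, rose in KO, while a rise of the whole family was not shown. Of 58 listed, 57 were in the table and 13 were tested, of which 2 were called higher, 0 lower and 11 not called. This compares with 6.27% called over all genes tested, 3.64% higher. At an unadjusted p under 0.05 there were 2 higher and 1 lower, against 2539 of all 13835 genes tested in either direction. DESeq2 and limma voom each called 2 higher and 0 lower. Pnoc, the precursor of nociceptin, had 22.7, 24.5 and 25.7 CPM in KO K77, K79 and K80, against 8.18, 8.93 and 8.64 CPM in WT K77, K79 and K80. The genotypes were far apart against a small spread within each (log2 fold change 1.5, SE 0.113, edgeR adjusted p = 8.69e-05). Penk, the enkephalin precursor, had 4.69, 4.74 and 4.89 CPM in KO K77, K79 and K80, against 1.31, 1.25 and 1.90 CPM in WT K77, K79 and K80 (log2 fold change 1.67, SE 0.234, edgeR adjusted p = 0.00224). Its reads were few, 39 to 54 counts in KO and 12 to 20 counts in WT libraries. The part of the marker levels given above in these rises was not tested. Pomc, also of the opioid family, overlapped between the genotypes and was not called (log2 fold change 0.23, SE 0.363, edgeR adjusted p = 0.808). Pdyn, of the same family, did not pass the filter. Its level overlapped too, at 0.842 to 2.96 CPM in KO against 0.285 to 0.872 CPM in WT libraries. KO K77 was the only KO library within the WT range. The log2 difference of Pdyn within a K number was -0.03 for K77, 1.34 for K79 and 1.95 for K80. Of the precursors 3 were called higher with no filter or without KO K77, against 2 with the main settings. Nucb2, the precursor of nesfatin, differed by 0.08 and was not called, with the sign turned without KO K80.

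Peptide receptor genes went both ways. Of 29 listed, 15 were tested, of which 1 was called higher, 2 lower and 12 not called, beside 6.27% called over all genes tested. The receptors for neuropeptide Y were the pair with opposite calls. Npy1r had 2.65, 2.86 and 3.26 CPM in KO K77, K79 and K80, against 0.763, 0.864 and 0.664 CPM in WT K77, K79 and K80, on 22 to 36 counts in KO and 7 to 9 counts in WT libraries. It rose by 1.93 on the log2 scale (SE 0.274, edgeR adjusted p = 0.00248). Npy2r had 16.9, 11.4 and 11.7 CPM in KO K77, K79 and K80, against 23.9, 19.9 and 36.5 CPM in WT K77, K79 and K80. It fell by 1.02 on the log2 scale (SE 0.232, edgeR adjusted p = 0.03), and the call was lost without KO K79, KO K80, WT K77 or WT K80, with an adjusted p of up to 0.146. Adcyap1r1, the receptor for the peptide PACAP, averaged 99.2 ± 9.57 CPM in KO and 134 ± 16.5 CPM in WT libraries (log2 fold change -0.43, SE 0.0985, edgeR adjusted p = 0.03), and lost its call without KO K77, KO K80, WT K77 or WT K79 (up to 0.123). Of these 2 lower calls 0 remained without KO K80, without WT K77 or without both K79 libraries. With the block 3 were called higher (Npy1r, Oprl1 and Tacr1) and 3 lower (Npy2r, Adcyap1r1 and Sstr1), beside 10.6% called over all genes tested. The nociceptin receptor gene Oprl1 averaged 129 ± 10.4 CPM in KO and 105 ± 8.97 CPM in WT libraries and was called with the block (edgeR adjusted p = 0.00572) and not without it (0.0634). The somatostatin receptor gene Sstr1 (-0.34) had an adjusted p of 0.0451 with the block and 0.568 without it.

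Among genes of granule membrane, transport and release edgeR called 1. Of 48 listed, 44 were tested, of which 1 was called higher, 0 lower and 43 not called, or 2.27% called against 6.27% of all genes tested. At an unadjusted p under 0.05 there were 11 higher and 3 lower, against 2539 of all 13835 genes tested in either direction. DESeq2 called 3 higher, and 0 were lower by DESeq2 or limma voom. The median log2 fold change was 0.03. The called gene was Sytl5, which encodes a Rab27-binding protein. It had 24.1, 18.1 and 20.2 CPM in KO K77, K79 and K80, against 6.54, 6.72 and 9.68 CPM in WT K77, K79 and K80, with no overlap (log2 fold change 1.43, SE 0.178, edgeR adjusted p = 0.00113). The vesicle motor gene Kif1a (0.10) and Syt11 (0.19), the most abundant of the list, were not called. With the block 5 were called higher, beside 6.13% of all genes tested. That added the granule membrane phosphatase-like genes Ptprn (0.72, adjusted p = 0.0185) and Ptprn2 (0.28, adjusted p = 0.0423), Rab3b (0.47, adjusted p = 0.0344) and Baiap3 (1.63, adjusted p = 0.00564) to Sytl5. These 4 were picked out after their values were seen. Without WT K80 edgeR called 1 gene of this list lower.

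Transcriptional regulators linked to neuroendocrine and neuronal genes held 2 calls. Of 18 tested, 1 was called higher, 1 lower and 16 not called, beside 6.27% called over all genes tested. St18, a zinc finger factor, had 248, 257 and 215 CPM in KO K77, K79 and K80, against 173, 163 and 143 CPM in WT K77, K79 and K80 (log2 fold change 0.59, SE 0.0871, edgeR adjusted p = 0.00301). Rest, the repressor that binds RE1 elements, had 27.1, 26.1 and 22.03 CPM in KO K77, K79 and K80, against 39.1, 32.1 and 41.0 CPM in WT K77, K79 and K80. It fell by 0.58 on the log2 scale (SE 0.118, edgeR adjusted p = 0.0167), with the call lost without KO K79, KO K80, WT K77 or WT K80 (up to 0.0857). Myt1l (0.15) and Myt1 (0.22), the most abundant uncalled genes, are relatives of St18. Myt1 was called with the block (edgeR adjusted p = 0.0229), and so was Insm2. With the block 3 genes of the list were called higher and 1 lower, beside 6.13% of all genes tested called higher and 4.45% called lower.

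**Figure D4:**
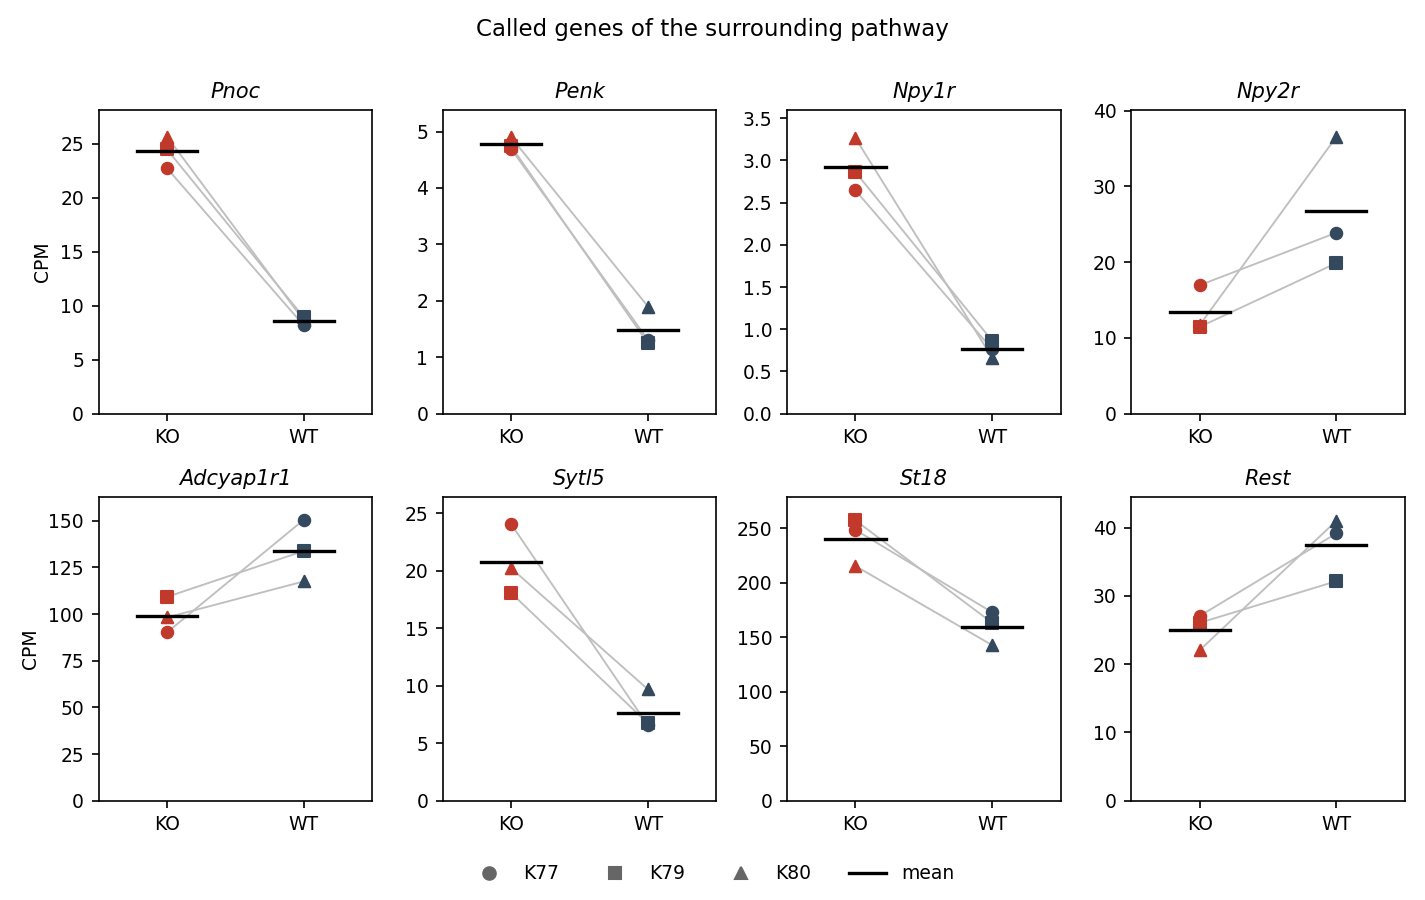
Level in CPM of the 8 genes of the surrounding pathway that edgeR called, in each library (points, joined within a K number; bars are means over 3 libraries; each axis starts at 0). KO libraries lie above WT libraries in Pnoc, Penk, Npy1r, Sytl5 and St18 and below them in Npy2r, Adcyap1r1 and Rest, with no overlap in any of the 8.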

How the data were processed

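Poly-A RNA of the 6 sorted cell libraries was sequenced as single reads of 36 cycles after 15 PCR cycles, per the labels' protocols. The deposited tables give whole read counts per gene, not normalized, in 36291 gene rows. The per-library files hold the same counts in all rows. Tools listed in the submitters' processing notes are DESeq 1.2.2, HTSeq 0.5.3p3 and TopHat 1.2.0, with build mm9. The annotation was not given in the sources used here, nor was the strand setting. Reads in no gene (19.75 to 21.77% of a library) or in several (1.94 to 1.99%) stayed out. The authors' deposited comparison holds p-values, a ratio (the fold change) and the log2 of it, per the file headers. They were taken to run KO over WT since all 777 calls it shares with edgeR have the same sign. Its mean columns were not used.

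Counts were tested in R 4.3.3 with edgeR 4.0.16 (TMM, filterByExpr with a minimum count of 10, quasi-likelihood test, Benjamini-Hochberg over 13835 genes). Each SE was obtained as the log2 fold change over the square root of F. Alternatives were RLE, DESeq2 1.42.0, voom in limma 3.58.1, other filters, the K number as a block, libraries left out, dropped erythroid, mitochondrial and sex-linked rows, and other thresholds. The blocked fit is given beside results it changes because same-numbered libraries deviated together (correlation across genes 0.264, 0.206 and 0.184, all over 0.1). The common biological coefficient of variation was 9.26%, and libraries of 1 genotype differed beyond sampling noise (chi-square per degree of freedom 3.65 to 10.1). CPM used an offset of 0.5 on the log2 scale. Coding and merged exon lengths came from GENCODE vM21 rather than RefSeq proteins as planned, and the exon length was added after the data had been seen. The script was tested on simulated counts.

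The members and lists were chosen with earlier results of these data known. The genes named from each list were the called ones, up to 6 by lowest p, and the 2 most abundant uncalled ones. Furin, Tacr1, Insm2 and the genes marked so in the text were picked out after their values were seen. 1 gene of the regulator list is not reported here.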

Additional observations from a re-analysis of the deposited data

How the results depend on the processing

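Over 14 alternatives the log2 fold change of Pcsk2 was 1.89 to 2.06 and called in all 14, and that of Cpe 0.30 to 0.41 and called in 12. Of the 10 genes 1 was called higher at adjusted p under 0.01 and 1 to 3 with 1 library left out, against 2. Pcsk1n was 0.00821 with limma voom and 0.00214 with the replicate block, against -0.0015. With 1 library left out it was -0.123 to 0.105, Scg3 -0.106 to 0.0399, Scg5 -0.0339 to 0.118, Chga -0.0267 to 0.102, Sst -0.0612 to 0.211 and Nucb2 -0.0569 to 0.186. Without both K79 libraries Scg5 was -0.0265, Chga -0.013 and 0 receptor genes were lower. For all genes the calls were 848 higher and 615 lower with the block (main counts 504 and 363), 546 lower with no filter, 254 and 173 at 0.01, 557 lower at 0.10, and 270 to 645 higher and 175 to 399 lower with 1 library left out. Processing enzymes gave 1 higher with DESeq2, no filter, the block or 0.10, 1 lower with no filter, the block or 0.10, and 0 to 1 each way with 1 library left out, against 0 and 0. Receptors gave 3 higher with DESeq2, 4 with no filter, 3 with the block, 2 at 0.10 and 1 to 3 with 1 library left out, against 1, and 0 lower at 0.01 and 0 to 1 with 1 library left out, against 2. Granule machinery gave 3 higher with DESeq2, 4 with no filter, 5 with the block, 4 at 0.10 and 1 to 3 with 1 library left out, against 1, and 0 to 1 lower. Regulators gave 2 higher with DESeq2, no filter or 0.10, 3 with the block and 1 to 2 with 1 library left out, against 1, and 0 lower at 0.01 and 0 to 1 with 1 library left out, against 1. The cause of these shifts was not tested. The block changed no other call among the genes named by the rule. Depth limits the genes with few reads, among them Pcsk1, Penk, Npy1r, Baiap3 and Insm2, which rest on under 80 counts per library.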
